A study of Homo sapiens with 4 samples.

Results

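The 7 genes described here are TXNIP and its relatives ARRDC1, ARRDC2, ARRDC3 and ARRDC4, alpha-arrestins of the human genome, together with MLXIP and MLXIPL, which encode the glucose-sensing transcription factors MondoA and ChREBP. They were picked by gene symbol from the 20372 gene rows of the deposited table, where all 7 had a row, and all 7 were among the 12696 genes with enough reads to be tested. RNA sequencing was performed in the established human line TPC1, which derives from a papillary thyroid cancer and carries a CCDC6-RET fusion. For Western blots the paper grew this line in DMEM with 10% fetal bovine serum, and its methods for the sequenced cells name no medium. One group was given BLU6864, a selective inhibitor of the RET receptor tyrosine kinase, for 6 h, and the other was given the solvent DMSO. There were 2 libraries per group (n = 2 throughout), and the comparison addresses which transcripts differ after RET inhibition. Labels and methods disagree on the concentration of BLU6864, with 100 micromolar in the former and 100 nM in the latter. DMSO has no time in the labels and 24 h in the names of its columns, so effects of the inhibitor and of culture time cannot be told apart. Nothing states that libraries of a group came from separate cultures, so p-values measure only the spread between these libraries, which may be technical.

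Alpha-arrestins are adaptor proteins with an arrestin fold whose tails carry short motifs that recruit ubiquitin ligases of the NEDD4 family to membrane proteins, which are then internalized. TXNIP also binds thioredoxin and, like ARRDC4, restrains glucose uptake by promoting the removal of glucose transporters from the cell surface. Transcription of TXNIP and ARRDC4 is driven by MondoA or ChREBP, each paired with MLX, which bind carbohydrate response elements when phosphorylated glucose accumulates, and FOXO factors, which AKT holds out of the nucleus, also drive TXNIP.

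The promoter windows that hold a match to a binding motif are shown first because these factors act on TXNIP and ARRDC4. RefSeq windows (GRCh38.p14, from 250 bases before to 50 bases after an annotated start) were found for 7 of 7 genes and numbered 10, since some genes have more than 1 start. They were searched on both strands for CACGTG, the palindromic E box, and for CACGNG followed by 5 free bases and CACGNG again, a relaxed form of the carbohydrate response element. The FOXO core GTAAACA was searched too. For TXNIP the 250 bases before the first of 2 starts lie at chr1:145996580-145996829 on the minus strand, and the capitals mark GTAAACA at positions -124 to -118 and both CACGNG copies at -88 to -72, counted from the start. For ARRDC4 the 250 bases lie at chr15:97960453-97960702 on the plus strand, with CACGTG at -210 to -205 in capitals. For ARRDC3 only 30 bases before the second start are shown, at chr5:91380108-91380137 on the minus strand, within the gene, where the capitals mark GTAAACA read on the opposite strand at -29 to -23.
TXNIP: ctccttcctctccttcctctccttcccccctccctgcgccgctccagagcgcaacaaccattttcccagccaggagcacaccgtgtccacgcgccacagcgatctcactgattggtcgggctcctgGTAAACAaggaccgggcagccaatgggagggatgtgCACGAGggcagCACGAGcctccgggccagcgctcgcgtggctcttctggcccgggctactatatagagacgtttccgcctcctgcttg
ARRDC4: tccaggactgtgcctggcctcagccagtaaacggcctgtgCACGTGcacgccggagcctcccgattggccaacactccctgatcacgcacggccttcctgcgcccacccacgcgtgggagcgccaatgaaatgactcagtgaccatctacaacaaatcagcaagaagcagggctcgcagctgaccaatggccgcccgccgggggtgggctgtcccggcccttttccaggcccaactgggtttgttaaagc
ARRDC3: agcccggcactTGTTTACcacggcgcggcc
The spaced CACGNG pair was found in 20 of 35116 windows of all genes (0.057%), of which TXNIP held 1. Its letters were added after values were seen, so this share gives no support to the match in TXNIP. The pair as planned, 2 CANNTG boxes with 5 bases between them, was found in 241 windows (0.686%) and in 0 of the 10. GTAAACA was found in 1202 windows (3.42%), among them 2 of the 10 windows of these genes, in TXNIP and ARRDC3. GTAAACA was likewise added after values were seen, so its share gives no support to these 2 matches. CACGTG was found in 2548 windows (7.26%) and in 1 of the 10, that of ARRDC4. ARRDC1, ARRDC2, MLXIP and MLXIPL had no match to the spaced CACGNG pair, GTAAACA or CACGTG in their windows. A match describes letters in a short window and not a bound site, and elements further from the start were not searched. The map of matches shows where they lie relative to each start.

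**Figure D1:**
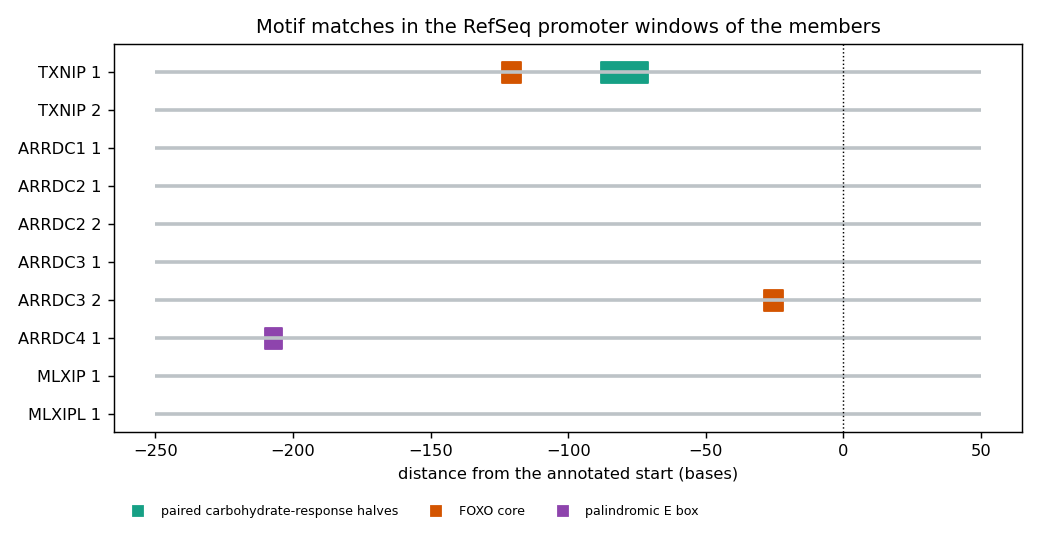
Motif matches in the 10 RefSeq promoter windows of the 7 genes, against the distance in bases from the annotated start (dotted line), where each grey line is 1 window named by its gene and start. Matches are seen in TXNIP window 1 (FOXO core and the spaced CACGNG pair), ARRDC3 window 2 (FOXO core) and ARRDC4 window 1 (E box), and none in the other 7 windows.

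The deposited counts summed to 23917056 and 26829072 reads in BLU6864 replicates 1 and 2 and to 28305571 and 23750509 in DMSO replicates 1 and 2. By edgeR's quasi-likelihood test with Benjamini-Hochberg adjustment, at an adjusted p under 0.05, 2574 genes (20.3%) were higher and 2790 (22.0%) lower with BLU6864, which left a median log2 fold change of 0.01 over all genes tested. All 9 ERK-driven transcripts examined were lower, with a median log2 fold change of -2.51, and FOSL1 fell from 7678 ± 488 to 765 ± 17.8 (SD) normalized counts. The thyroid lineage factor PAX8 stood at 20093 to 27445 normalized counts in the 4 libraries, whereas TSHR and NKX2-1 had no read. The summed level of 7 thyroid markers, nearly all PAX8, ranged from 20578 to 22019 with BLU6864 and from 26855 to 28272 with DMSO. The 3 that were tested, TG (log2 fold change -0.85), FOXE1 (-0.48) and PAX8 (-0.36), were all called lower. PAX8 lost this call in 3 alternatives and FOXE1 in 1. Markers of other cells also differed, since the sum of 7 fibroblast markers ranged from 597 to 614 with BLU6864 and from 382 to 421 with DMSO, and that of 3 endothelial markers with a row, nearly all KDR, from 492 to 518 and from 110 to 164. The sum of 5 leukocyte markers, nearly all CD68, ranged from 4524 to 4728 and from 5076 to 5711, and CD14 among them was higher (17.8 ± 1.99 to 43.9 ± 7.76, adjusted p = 0.0017), though not without BLU6864 replicate 1 (adjusted p = 0.064). The sum of 6 epithelial markers ranged from 2911 to 3032 and from 3723 to 4336. Among them KRT18 was lower (log2 fold change -1.02, adjusted p = 3.5e-08) and KRT7 was higher (0.41, adjusted p = 0.038). The call of KRT7 was lost in 3 alternatives. COL1A2, COL3A1, DCN and CD3E had no read, CDH5 at most 1 and PTPRC at most 5, and the part of all these markers in the changes below was not tested.

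TXNIP and ARRDC3 rose with BLU6864, each about 2.39-fold, whereas ARRDC4 fell 1.72-fold. These 3 of the 7 genes (42.9%) passed the test, against 42.2% of all genes tested, so the number of genes that changed was close to the background and says nothing particular about the family. Of the 7, 2 were higher and 1 was lower, and their median log2 fold change was 0.24 against 0.01 over all genes. The libraries of the groups did not overlap for 6 of the 7, against 70.8% of all genes tested. An exact two-sided permutation test of a single gene with 2 libraries against 2 cannot go below 0.333, so the adjusted p-values given here rest on the spread that edgeR estimates across genes.

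**Figure D2:**
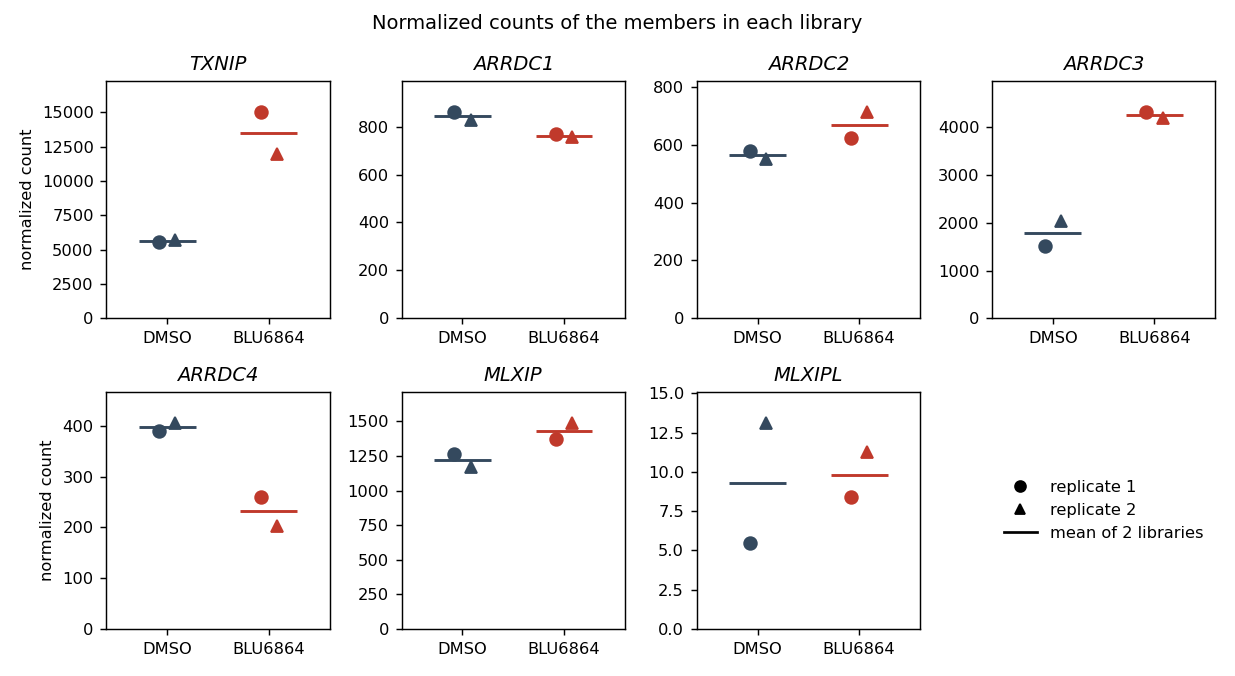
Normalized counts (vertical axes, each from 0 and on its own scale) of the 7 genes in each library, with circles for replicate 1, triangles for replicate 2 and lines for the mean of 2 libraries. TXNIP and ARRDC3 are higher and ARRDC4 is lower in both BLU6864 libraries, and only MLXIPL has overlapping groups.

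TXNIP, the thioredoxin-binding alpha-arrestin (ENSG00000117289, hg19 chromosome 1, 145438469 to 145442635), had 14291 and 12770 reads in the BLU6864 libraries and 6091 and 5208 in the DMSO libraries. Scaled for depth, these were 15015 and 11961 against 5575 and 5699 normalized counts. Both BLU6864 libraries lay far above both DMSO libraries, and the BLU6864 pair was spread more widely than the DMSO pair. The mean rose from 5637 ± 87.4 to 13488 ± 2160 (SD), a log2 fold change of 1.26 ± 0.13 (SE, 95% interval 1.003 to 1.52, adjusted p = 6.4e-09). Of all genes tested, 97.2% had a lower log2 fold change.

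ARRDC3 (ENSG00000113369, hg19 chromosome 5, 90664541 to 90679176), which recruits NEDD4 ligases to receptors at the cell surface, was counted 4117 and 4478 times in the BLU6864 libraries and 1655 and 1872 times in the DMSO libraries. The normalized counts were 4326 and 4194 against 1515 and 2048. Here the DMSO pair was the more widely spread, and the groups were again well apart. The mean rose from 1782 ± 377 to 4260 ± 92.9, a log2 fold change of 1.26 ± 0.12 (95% interval 1.01 to 1.51, adjusted p = 3.2e-09). In the order of log2 fold changes ARRDC3 and TXNIP took neighbouring places, 355 and 356 from the top of 12696 genes.

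ARRDC4 (ENSG00000140450, hg19 chromosome 15, 98462784 to 98517068), which like TXNIP restrains glucose uptake, went the other way. The BLU6864 libraries held 247 and 217 reads and the DMSO libraries 425 and 371, or 260 and 203 against 389 and 406 normalized counts. Both BLU6864 libraries lay below both DMSO libraries. The mean fell from 397 ± 12.0 to 231 ± 39.8, a log2 fold change of -0.78 ± 0.14 (95% interval -1.07 to -0.49, adjusted p = 5.7e-05). Only 7.31% of tested genes had a log2 fold change as low. The size varied with the BLU6864 libraries, at -0.96 without replicate 1 and -0.61 without replicate 2 (adjusted p = 8.8e-05 and 0.019). The deposited row of ARRDC4 spans 54285 bases, against 13131 for the gene in RefSeq, and the counting annotation is not given in the sources used here, so reads from outside the gene cannot be told apart from its own, here and in its level per kilobase. The intervals of TXNIP and ARRDC4 lay on opposite sides of 0, although both genes are known targets of MondoA.

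ARRDC1 (ENSG00000197070, hg19 chromosome 9, 140500106 to 140509812), which binds TSG101 and drives the budding of small vesicles from the plasma membrane, did not pass the test. Its normalized counts were 770 and 755 with BLU6864 and 861 and 829 with DMSO. The BLU6864 libraries were slightly the lower without overlap, and the log2 fold change was -0.14 ± 0.11 (95% interval -0.37 to 0.08, adjusted p = 0.31). Its row overlaps that of C9orf37, and whether reads were assigned by strand is not given in the sources used here, so shared reads cannot be told apart.

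ARRDC2 (ENSG00000105643, hg19 chromosome 19, 18111941 to 18124911) had 624 and 714 normalized counts with BLU6864 and 579 and 553 with DMSO. The BLU6864 libraries were the higher without overlap. The difference gave a log2 fold change of 0.25 ± 0.12 (95% interval 0.0032 to 0.49) and did not pass after adjustment (adjusted p = 0.096). It passed at 0.28 when DMSO replicate 1 was left out (adjusted p = 0.035), at 0.30 with upper-quartile factors (adjusted p = 0.043) and at 0.29 when libraries were scaled by their totals alone (adjusted p = 0.0497).

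**Figure D3:**
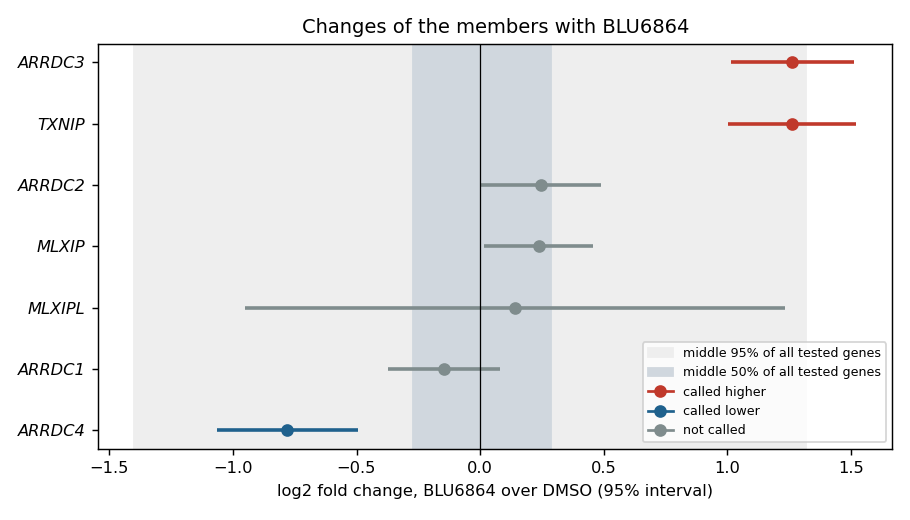
Log2 fold change of BLU6864 over DMSO for the 7 genes (points) with 95% intervals (lines), over the middle 50% and 95% of all 12696 genes tested (dark and light bands). TXNIP and ARRDC3 lie at the upper edge of the light band and ARRDC4 to the left of the dark band, whereas the other 4 points lie within the dark band.

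Of the glucose-sensing factors, MLXIP (ENSG00000175727, hg19 chromosome 12, 122516628 to 122631894) was present at 1372 and 1491 normalized counts with BLU6864 and 1265 and 1173 with DMSO. The BLU6864 libraries were the higher without overlap, but the log2 fold change of 0.24 ± 0.11 (95% interval 0.02 to 0.46) did not pass (adjusted p = 0.077). It passed at 0.29 without DMSO replicate 1 (adjusted p = 0.0088), at 0.29 with upper-quartile factors (adjusted p = 0.028) and at 0.28 with totals alone (adjusted p = 0.037). MLXIPL (ENSG00000009950, hg19 chromosome 7, 73007524 to 73038873) was close to the limit of detection, with 8 and 12 reads in the BLU6864 libraries and 6 and 12 in the DMSO libraries. The groups overlapped, and the log2 fold change of 0.14 ± 0.53 had an interval from -0.95 to 1.23 (adjusted p = 0.85), which includes changes in either direction. The sign of its log2 fold change turned when BLU6864 replicate 2 (-0.10) or DMSO replicate 1 (-0.40) was left out.

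Levels were compared between genes per kilobase of the canonical GENCODE v44 transcript, matched by symbol. TXNIP was the most abundant of the 7, at 1940 normalized counts per kilobase with DMSO and 4643 with BLU6864. With DMSO the order below it was ARRDC1 (543), ARRDC3 (420), ARRDC2 (226), MLXIP (145), ARRDC4 (97.9) and MLXIPL (2.86 normalized counts per kilobase). With BLU6864 the means were 1005 for ARRDC3, 490 for ARRDC1, 268 for ARRDC2, 171 for MLXIP, 57.0 for ARRDC4 and 3.02 for MLXIPL. The rows of MLXIP (115267 bases, against 68589 in RefSeq) and MLXIPL (31350 against 54706) also differ in span from the present annotation, so their levels per kilobase carry the same limit as that of ARRDC4. ARRDC3 and ARRDC1 thus exchanged places while the rest of the order was the same. In both groups the libraries of neighbouring genes in the order did not overlap, for example 533 to 554 for ARRDC1 and 357 to 483 for ARRDC3 with DMSO.

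**Figure D4:**
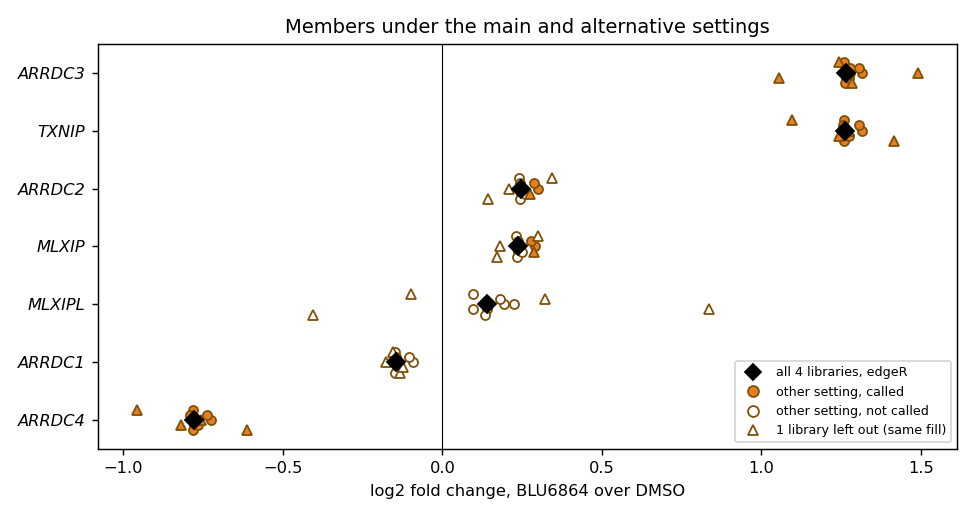
Log2 fold changes of the 7 genes in the edgeR test of all 4 libraries (diamonds), under other normalizations, filters and tests (circles) and with 1 library left out (triangles), filled where the adjusted p was under 0.05. TXNIP, ARRDC3 and ARRDC4 are filled throughout, ARRDC2 and MLXIP in 3 settings each, and MLXIPL spans 0.

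The genes whose levels followed TXNIP most closely over the 4 libraries were sought among 10686 genes with a mean of at least 100 normalized counts, by the Euclidean distance of centred log2 values. They were MEX3B (distance 0.092), which had 235 and 185 normalized counts with BLU6864 and 93.4 and 90.8 with DMSO, FAM65B (0.10) and PLSCR4 (0.14). For ARRDC4 they were MYH15 (0.055), with 180 and 142 against 268 and 270 normalized counts, the pentose phosphate enzyme gene RPIA (0.087) and PINX1 (0.10). Over 4 libraries such a distance describes a shared shape and no more.

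Other arrestin-fold genes, taken from a list of 8 of which 6 were tested, showed 0 higher and 1 lower and a median log2 fold change of -0.07, against 0.01 for all genes. The gene that fell was ARRB1, which encodes the adaptor beta-arrestin 1 of G protein-coupled receptors. It had 1327 and 1500 normalized counts with BLU6864 and 2931 and 2519 with DMSO, a log2 fold change of -0.94 ± 0.11 (adjusted p = 1.2e-07). Its paralog ARRB2 stood at 439 ± 6.22 against 388 ± 3.10 (0.18 ± 0.12, adjusted p = 0.24). The remaining alpha-arrestin, ARRDC5, had 1 read in each BLU6864 library and none with DMSO, and was not tested.

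Among 5 partners and competitors in the MLX and MAX network, 1 was higher and 1 lower, with a median log2 fold change of -0.15. MLX, the obligate partner of MondoA and ChREBP, was present at 1282 and 1413 normalized counts with BLU6864 and 1374 and 1641 with DMSO, and these groups overlapped (log2 fold change -0.16 ± 0.11, adjusted p = 0.27). It passed as lower only without DMSO replicate 1 (adjusted p = 0.0069). MXD4, a repressor that pairs with MAX, rose from 2447 ± 78.9 to 3660 ± 60.1 (0.59 ± 0.11, adjusted p = 6.0e-05). MAX fell from 1166 ± 66.0 to 881 ± 32.3 (-0.40 ± 0.11, adjusted p = 0.0041), a call that was lost when either BLU6864 library was left out (adjusted p up to 0.17).

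Of 17 further genes described as targets of MondoA or ChREBP, 13 were tested, and 2 were higher and 5 lower with a median log2 fold change of -0.22. PPP1R3B, which targets protein phosphatase 1 to glycogen, fell the furthest, from 2753 and 2369 normalized counts with DMSO to 459 and 456 with BLU6864 (-2.48 ± 0.12, adjusted p = 2.0e-15). The transcriptional repressors BHLHE40 (-1.89 ± 0.11, adjusted p = 2.2e-13), BHLHE41 (-0.89 ± 0.12, adjusted p = 6.5e-07) and KLF10 (-0.78 ± 0.11, adjusted p = 1.8e-06) fell as well. The lipid gene PNPLA3 was also lower, and ACACB and FASN, which encode enzymes of fatty acid metabolism, were higher by 0.41 and 0.34. These last 3 calls were lost when BLU6864 replicate 2 was left out, and those of PNPLA3 and FASN also without BLU6864 replicate 1 and that of FASN without DMSO replicate 2, with adjusted p-values up to 0.092, 0.24 and 0.53 for PNPLA3, ACACB and FASN. TXNIP thus rose while ARRDC4, KLF10, BHLHE40 and PPP1R3B fell. Many of these genes also answer to other signals, whose part was not tested.

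Glucose transporters and hexokinases, whose products TXNIP and ARRDC4 affect at the cell surface or feed into MondoA, changed in both directions. Of 13 genes 10 were tested, and 4 were higher and 4 lower with a median log2 fold change of -0.04. HKDC1, a hexokinase domain protein, rose from 1708 ± 110 to 11556 ± 165 normalized counts (2.76 ± 0.12, adjusted p = 6.8e-16), and the transporter gene SLC2A12 from 190 ± 19.8 to 1129 ± 67.4 (2.57 ± 0.13, adjusted p = 7.7e-15). By contrast, HK2 fell from 2234 ± 400 to 668 ± 5.17 (-1.74 ± 0.12, adjusted p = 5.3e-12) and SLC2A1, which encodes the transporter GLUT1, from 3825 ± 438 to 1478 ± 4.43 (-1.37 ± 0.11, adjusted p = 1.2e-10). SLC2A4, which encodes the insulin-responsive GLUT4, rose from a low level of 9.15 and 8.75 normalized counts to 36.8 and 35.6. HK1 and SLC2A3 were the other genes that fell and SLC2A6 the other that rose, and SLC2A3 did not pass once BLU6864 replicate 2 was left out (adjusted p = 0.16).

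In the thioredoxin system, 14 of 14 genes were tested, 3 were higher and 1 lower, and the median log2 fold change was 0.16. TXN, the thioredoxin that TXNIP binds, had 8052 and 9373 normalized counts with BLU6864 and 6762 and 8893 with DMSO, so the groups overlapped (0.16 ± 0.13, adjusted p = 0.34). It passed as higher only without DMSO replicate 2 (adjusted p = 0.0041), and its sign turned in 1 other alternative. MAP3K5, which encodes the stress kinase ASK1 that thioredoxin holds inactive, fell from 2541 ± 189 to 1656 ± 108 (-0.61 ± 0.11, adjusted p = 4.0e-05). TXNL1, TXNRD1 and the peroxiredoxin gene PRDX4 rose by 0.41, 0.40 and 0.37 on the log2 scale, and all 3 lost their calls when either BLU6864 library was left out (adjusted p up to 0.19, 0.24 and 0.35), PRDX4 also without DMSO replicate 1.

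Of 9 NEDD4 family ligases, which alpha-arrestins recruit, 3 were higher and 2 lower, and the median log2 fold change was -0.07. HECW2 rose from 160 ± 17.2 to 358 ± 20.0 normalized counts (1.16 ± 0.14, adjusted p = 2.3e-07), NEDD4L by 0.57 and ITCH, a ligase that ubiquitinates TXNIP, by 0.45 on the log2 scale. WWP1 fell from 4686 ± 22.4 to 3308 ± 224 (-0.50 ± 0.11, adjusted p = 5.3e-04), and SMURF1 was lower as well. Without BLU6864 replicate 1 the calls of ITCH and SMURF1 were lost (adjusted p = 0.10 and 0.079), and without BLU6864 replicate 2 that of WWP1 (adjusted p = 0.11).

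Genes of endosomal sorting and known cargo of alpha-arrestins numbered 9, of which 8 were tested, 1 was higher and 3 were lower, with a median log2 fold change of -0.16. The insulin receptor gene INSR rose from 207 ± 10.6 to 387 ± 26.5 (0.90 ± 0.13, adjusted p = 5.0e-06). STAM and HGS, whose products sort ubiquitinated cargo together, were lower by -0.50 and -0.29. STAM did not pass once BLU6864 replicate 2 was left out (adjusted p = 0.11), and HGS did not in 5 alternatives (adjusted p up to 0.33). TSG101, the partner of ARRDC1, stood at 3930 ± 223 against 3294 ± 511 (0.26 ± 0.12, adjusted p = 0.071), and passed as higher in 4 alternatives.

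AMPK and AKT phosphorylate TXNIP, and of 10 subunit genes 9 were tested, 3 were higher and 2 lower, with a median log2 fold change of 0.03. PRKAA2, a catalytic subunit of AMPK, rose from 454 ± 58.4 to 738 ± 71.1 normalized counts (0.70 ± 0.12, adjusted p = 5.2e-05), and the regulatory subunit genes PRKAG2 and PRKAB2 rose by 0.55 and 0.44 on the log2 scale. AKT1 fell from 3866 ± 344 to 2583 ± 20.1 (-0.58 ± 0.11, adjusted p = 9.9e-05). PRKAB2 did not pass once BLU6864 replicate 2 was left out (adjusted p = 0.093).

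**Figure D5:**
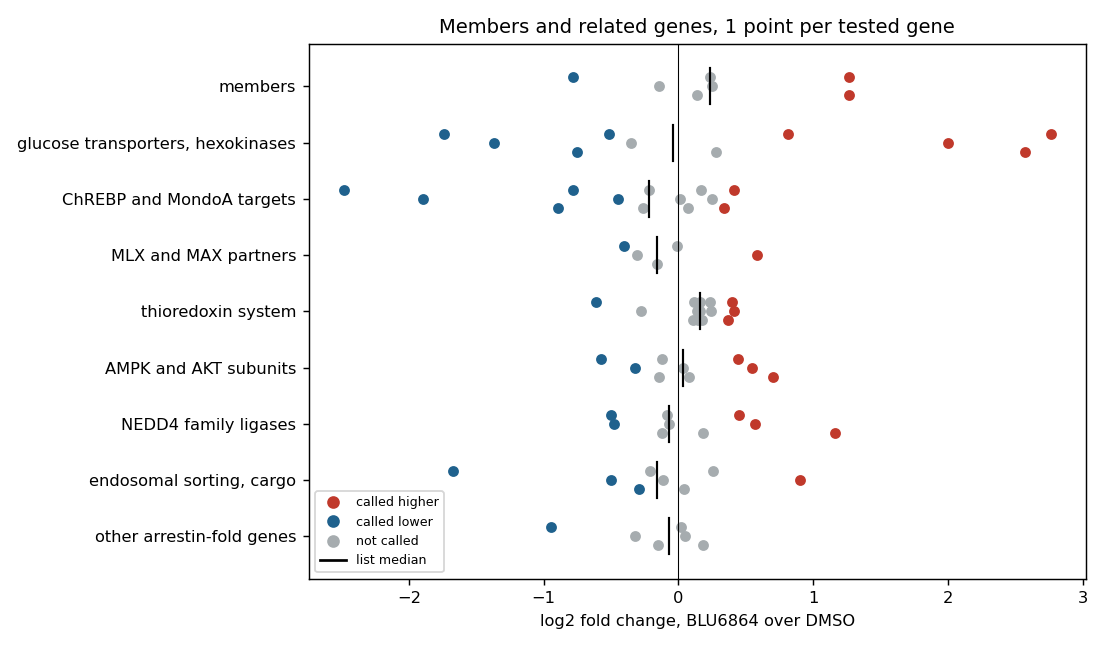
Log2 fold change of BLU6864 over DMSO for each tested gene of the 7 genes described here (members) and of 8 related groups, with red for called higher, blue for called lower, grey for not called and a black line for the group's median. Medians lie between -0.22 and 0.24, and every group but the arrestin-fold genes holds calls in both directions.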

How the data were processed

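Messenger RNA was measured in 4 libraries of TPC1 cells, 2 with BLU6864 and 2 with DMSO, grouped by the labels. Per the labels, RNA was extracted with a Qiagen kit and sequenced as 50-base single reads on a HiSeq after TruSeq preparation, whereas the study's methods give paired reads. The submitters' processing notes name STAR 2.3, hg19 and DESeq2. How reads were assigned to genes, with which annotation and strand setting, is not given in the sources used here.

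The authors deposited 1 table of raw read counts per gene. The same deposited table holds normalized counts, a signal scaled by the authors with DESeq2 size factors, used here for levels, means and SDs. Columns of the authors' own comparison (log2 fold change, its error, test statistic and p-values) were not used. There were 0 columns of other samples. The 2 BLU6864 libraries are marked as a re-analysis in their titles. Replicates of a group differed by more than sampling noise.

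The raw counts entered edgeR 4.0.16 (R 4.3.3). Genes passed filterByExpr with a minimum count of 10, libraries were scaled by TMM, and group alone formed the design of a two-sided quasi-likelihood test, whose p-values were adjusted by Benjamini-Hochberg over all 12696 genes. DESeq2 1.42.0 and limma 3.58.1 (voom), other factors, filters, a replicate block and leaving out each library were alternatives. The test was checked on simulated counts, where it recovered 33 of 50 genes changed 1.5-fold and 48 of 50 changed 2-fold. Of its 186 calls there, 7 were false. Changes below 1.5-fold were not simulated, so how often the test finds them is unknown. Library totals ranged from 23750509 to 28305571 counts. The study's own test was DESeq2.

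The genes and lists were chosen with earlier results of these data known. All 7 genes were named, with up to 4 called genes per list by smallest adjusted p, and the 3 nearest genes in pattern to TXNIP and ARRDC4. Genes added to complete a count or as partners (HK1, SLC2A3, SLC2A4, SLC2A6, PNPLA3, ACACB, FASN, MLX, TXN, ARRB2, ARRDC5, SMURF1, HGS and TSG101 among them) were named after their values were seen. The spaced CACGNG pair and GTAAACA were added to the motif search after values were seen. A planned search of protein motifs was not run. Values of some list genes are not reported here, although the counts per list include them. Promoter windows are RefSeq sequences of GRCh38.p14, and gene coordinates are those of the deposited table (hg19).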

Additional observations from a re-analysis of the deposited data

How the results depend on the processing

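Each setting was compared with the edgeR test of all 4 libraries. TXNIP (log2 fold change 1.09 to 1.42, adjusted p at most 3.7e-07), ARRDC3 (1.05 to 1.49, at most 5.3e-08) and ARRDC4 (-0.96 to -0.61, at most 0.019) kept their direction and their call in all 12 alternatives, and ARRDC1 (-0.18 to -0.09) passed in 0. Of the 7 genes, 4 rather than 2 were higher with upper-quartile factors and with total library size, and leaving out 1 library gave 2 to 4, because ARRDC2 and MLXIP then passed. The log2 fold change of MLXIPL ranged from -0.40 to 0.84 with 1 library left out, at -0.10 without BLU6864 replicate 2 and -0.40 without DMSO replicate 1, and this gene was not tested with a mean count of at least 50. Over all genes, leaving out 1 library gave 1250 to 3311 genes higher and 1490 to 3621 lower, fewest without a BLU6864 library (1521 higher and 1615 lower without replicate 1, 1250 and 1490 without replicate 2). A lone library was then assumed to vary like the other group. DESeq2 gave 1909 and 2356. No scaling moved the median of all genes beyond 0.07. With a replicate block 2924 genes were higher and 3039 lower, and no call among the 7 genes changed (TXNIP 1.25, ARRDC3 1.28, ARRDC4 -0.78). Whether replicates of the same number were paired between the groups is not stated. The difference between replicates correlated at r = 0.132 across genes between the groups, which over only 2 pairs cannot settle it. The genes nearest to TXNIP and ARRDC4 were the same 3 each on log CPM, with the first 2 of TXNIP exchanged. CANNTG, searched in place of CACGTG, was found in 68.7% of all windows and in 3 of the 10, and 2 such boxes spaced by 5 bases were in 0 of the 10. With 2 libraries per group and 6 to 12 reads, depth limits the precision of MLXIPL.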

Other observations

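Genes next to the 7 genes on the chromosome were read from the same test, by the coordinates of the table. POLR3GL, 13601 bases from TXNIP, had 1161 and 1071 normalized counts with BLU6864 and 1038 and 937 with DMSO (log2 fold change 0.18, adjusted p = 0.20). The neighbour on its other side, HFE2, had 2 reads in 1 BLU6864 library and none in the others. Next to ARRDC4, LINC00923 had 8 to 14 reads per library (0.60, adjusted p = 0.33) and FAM169B none.

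BCL7A, 16680 bases from MLXIP, was higher with BLU6864, at 394 and 357 against 238 and 208 normalized counts (0.75, adjusted p = 6.9e-05). ZMYND19, 15164 bases from ARRDC1, was lower, at 348 and 362 against 445 and 445 (-0.32, adjusted p = 0.039). KCNN1, 1052 bases from ARRDC2, was higher on few reads, 10 and 15 with BLU6864 and 6 and 3 with DMSO (1.44, adjusted p = 0.043). NR2F1, the nearest gene row on 1 side of ARRDC3 though 2239867 bases away, fell from 981 and 910 normalized counts with DMSO to 188 and 188 with BLU6864 (-2.33, adjusted p = 4.5e-14).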
